A study of Mus musculus with 2 samples.

Results

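The Notch receptors, ligands and target genes were examined in whole mouse ovary with and without ulipristal acetate during induced ovulation. The set held 10 genes out of 18193 that were named by single-gene probe sets: the receptors Notch1, Notch2, Notch3 and Notch4, the ligands Jag1, Jag2 and Dll4, and the target genes Hes1, Hey1 and Hey2. All probe sets whose annotation named only 1 of these genes were taken, which gave 19 probe sets. No probe set was chosen by its measured value, but the genes were chosen with earlier results of these data known.

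Wild type CD-1 mice, immature at 24 to 28 days old, received 5 IU of PMSG, a gonadotropin that grows preovulatory follicles, and 48 h later 5 IU of hCG, which starts ovulation. Ulipristal acetate, a drug that binds the progesterone receptor and alters its action, or oil vehicle was given 2 h after hCG, and ovaries were collected at 11 h. Hormone priming was thus shared by both groups, and the labels give neither the number of mice in each sample nor the injection from which the 11 h were counted. There was 1 array per treatment, so no spread between animals, test or p-value is given, and every difference is between these 2 samples.

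Notch signalling works between touching cells. A ligand of the Jagged or Delta-like family on one cell binds a Notch receptor on the next, proteases release the receptor's intracellular part, and this part joins the DNA-binding protein RBPJ to switch on genes of the HES and HEY families, which are transcriptional repressors. In the ovary, Jagged ligands and Notch2 are known for exchanges among the oocyte, granulosa and pregranulosa cells, while Dll4, Notch1 and Notch4 are best known from blood vessels and Notch3 from the smooth muscle and pericytes around them.

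No Notch gene differed by 2-fold or more between the arrays when each was represented by its brightest probe set. Of the 10 genes, 9 were measured, which here means that the mean of the 2 log2 signals reached the median over all probe sets, which equals a signal of 30.8. The measured genes lay between a log2 ratio of -0.33 for Hey1 and 0.55 for Notch4, with 5 above 0 and 4 below, where 60.0% of all measured genes were above 0. Each ratio is ulipristal over vehicle, on MAS5 signals in arbitrary units. The background over 11364 measured genes was 3.34% for 2-fold or more higher and 1.56% for 2-fold or more lower, so a count of 0 among 9 genes is close to the background. The median log2 ratio was 0.14 for the measured Notch genes and 0.09 for all measured genes. The median size of the ratio, regardless of direction, was 0.21 for the Notch genes against 0.26 for all measured genes.

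**Figure D1:**
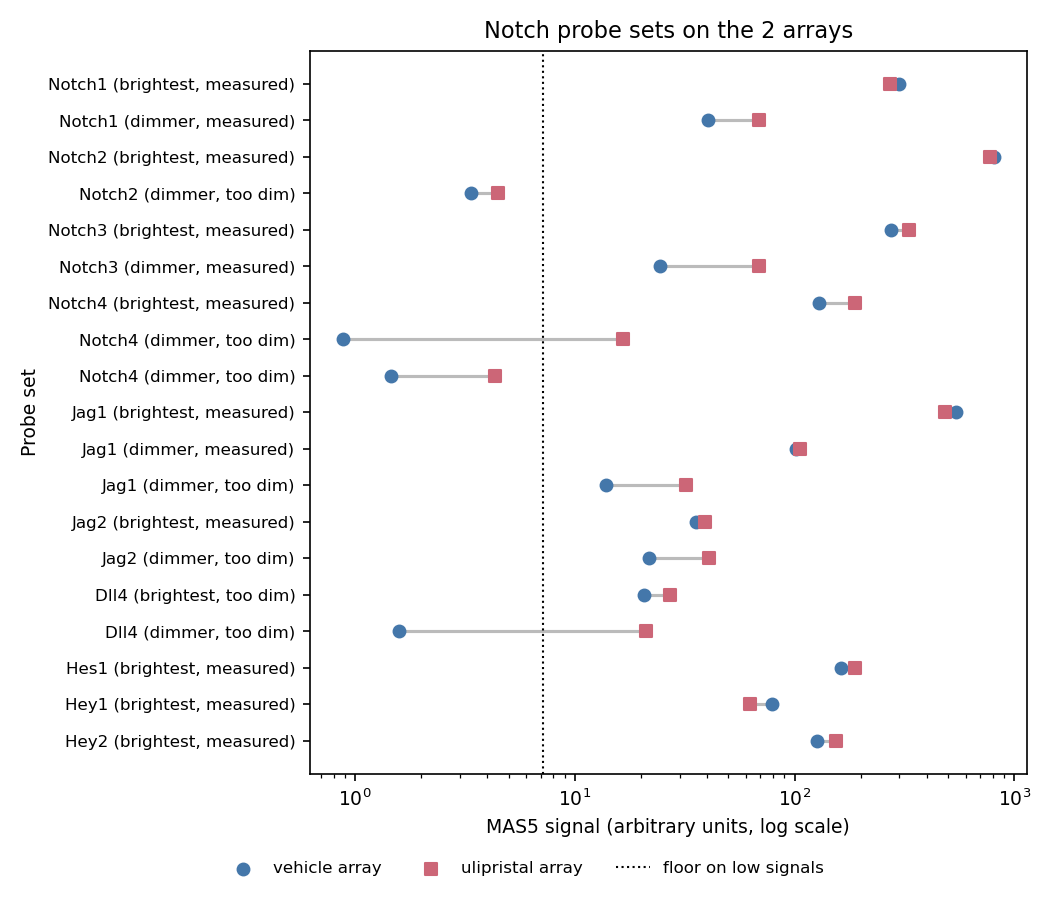
MAS5 signal (arbitrary units, log scale) of each of the 19 Notch probe sets on the vehicle array (circles) and the ulipristal array (squares), 1 array each, with grey lines joining the pair and a dotted line at the floor of 7.17, to which lower signals were raised before ratios were taken. The pairs of the brighter probe sets almost touch, for example 810 and 775 for Notch2, while long lines appear among the dim ones.

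Among the ligands, Jag1 and Jag2 were similar on both arrays and Dll4 was too dim to be measured. Jag1, the Jagged ligand found on oocytes and several somatic cells, read 542 with vehicle and 486 with ulipristal on its brightest probe set (1434070_at), a log2 ratio of -0.16. Its second measured probe set read 101.8 and 106.1, a log2 ratio of 0.06. The 2 measured probe sets of Jag1 thus pointed in opposite directions by small amounts. The third Jag1 probe set lay below the filter, at 13.8 with vehicle and 32.1 with ulipristal, 2.33-fold higher.

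Jag2, the other Jagged ligand, was close to the filter of 30.8. Its brighter probe set (1426431_at) read 35.6 with vehicle and 39.3 with ulipristal, a log2 ratio of 0.14. The dimmer probe set, whose mean log2 signal lay just below the filter, read 21.7 and 40.9, a log2 ratio of 0.91. The ulipristal array was the higher one for both, by amounts that differed between the probe sets.

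Dll4, a Delta-like ligand of endothelial tip cells, had no measured probe set. The brighter (1421827_at) read 20.7 with vehicle and 27.1 with ulipristal, a log2 ratio of 0.39. The other read 1.59 with vehicle, under the floor of 7.17 that was set for low signals, and 21.0 with ulipristal, so it was at least 2.93-fold higher. The size of a difference in Dll4 was therefore not measurable at these signals. Endothelial markers mostly lay above 0. Of 14 measured endothelial genes, 12 had a ratio above 0, 2 passed 2-fold upward and 0 downward, beside 60.0% above 0, 3.34% past 2-fold upward and 1.56% downward over all measured genes. Those past 2-fold were Tie1, an endothelial receptor kinase (24.8 and 76.8), and Pecam1, an endothelial adhesion molecule (85.2 and 171). The vehicle signal of Tie1 lay below the filter, so this gene counted as measured only through its ulipristal signal. The summed signal of the 14 genes was 3273 with vehicle and 4055 with ulipristal, a ratio of 1.24, and no marker was at 0. Their part in the Dll4 values was not tested. In whole ovary, a larger number of cells of a type and more RNA in each of them cannot be told apart.

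Among the receptors, Notch2 and Notch1 were slightly below 0 and Notch3 and Notch4 above 0. Notch2, the receptor linked above to granulosa cells, read 810 with vehicle and 775 with ulipristal (1455556_at), a log2 ratio of -0.06, the closest to 0 of the 9 measured genes. Its other probe set lay below the floor on both arrays, at 3.38 and 4.46, and gives no fold. Granulosa markers did not stay as close: 5 of 11 measured markers were at least 2-fold higher and 0 lower. Over all measured genes the shares were 3.34% and 1.56%. Of the 11 markers, 10 lay above 0 and 1 below, Amh, at 48.7 and 30.1. The ulipristal signal of Amh lay just below the filter, so this gene counted as measured only through its vehicle signal. The summed signal of the 11 was 13142 with vehicle and 17744 with ulipristal, a ratio of 1.35. Inhbb, a subunit of inhibin and activin, was the granulosa marker with the highest ratio, at 656 and 1781, and the others past 2-fold were Inhba, Gata4, Esr2 and Fshr. Oocyte markers had 0 of 9 measured genes past 2-fold, with summed signals of 1722 and 1888, and the brightest of them, the oocyte growth factor gene Gdf9, read 309 and 329. Whether either cell type's content bears on Notch2 or Jag1 was not tested.

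Notch1 gave different answers on its probe sets. The brighter (1418634_at) read 299 with vehicle and 273 with ulipristal, a log2 ratio of -0.13. The dimmer, also measured, read 40.5 and 68.7, a log2 ratio of 0.76. The direction for Notch1 therefore depends on the probe set, and the median of the 2 ratios was 0.32.

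Notch3 held the only measured Notch probe set that passed 2-fold. Its brighter probe set (1421965_s_at) read 275 with vehicle and 331 with ulipristal, a log2 ratio of 0.27, or 1.21-fold higher. The s in its name marks a probe set whose probes may bind more than a single transcript. Its dimmer probe set (1421964_at) read 24.5 and 69.2, a log2 ratio of 1.499, or 2.83-fold higher. The vehicle signal of this dimmer probe set lay below the filter, so it counted as measured only through its ulipristal signal. Both Notch3 probe sets were higher on the ulipristal array, and in signal units the differences were 56.3 and 44.7. With 50 added to every signal, which damps ratios of dim probe sets, the dimmer gave 0.68 and the brighter 0.23. Among single-gene probe sets that were measured, 3.2% passed 2-fold upward and 2.02% downward, against 1 higher and 0 lower of 12 for the Notch genes. Smooth muscle and pericyte markers had 0 of 11 measured genes past 2-fold, 9 of them above 0, and summed signals of 19041 and 20758. The brightest, the smooth muscle actin gene Acta2, read 7711 and 8116. Their part in the Notch3 values was not tested.

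Notch4, the receptor most restricted to endothelium, had the highest ratio of the 9 measured genes without reaching 2-fold. Its only measured probe set (1449146_at) read 129 with vehicle and 188 with ulipristal, a log2 ratio of 0.55, or 1.46-fold higher. Of all measured genes, 86.1% had a lower ratio. The other probe sets were at or under the floor on the vehicle array. One read 0.88 with vehicle and 16.6 with ulipristal, at least 2.32-fold higher, and the other read 1.45 and 4.33 and gives no fold. The endothelial markers listed beside Dll4 apply here as well: the ratio of their summed signals was 1.24, and their median log2 ratio was 0.25, with Kdr, the main receptor for vascular growth factor, at 347 and 390 and Cdh5, an endothelial cadherin, at 340 and 288. Their part in the Notch4 value was not tested.

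**Figure D2:**
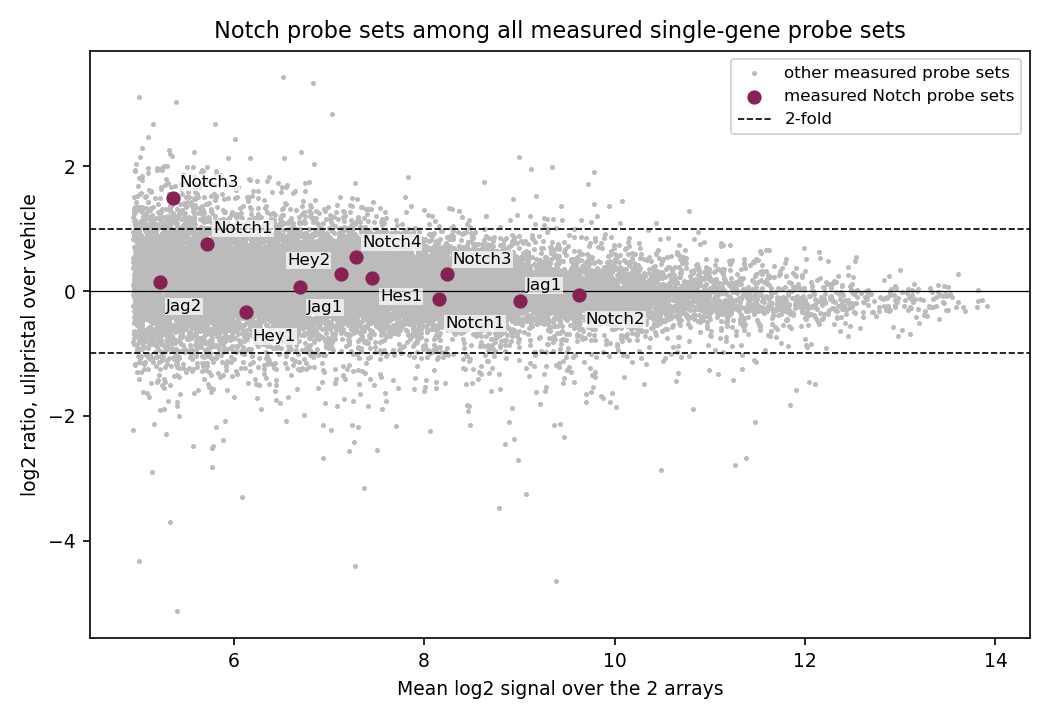
log2 ratio (ulipristal over vehicle) against mean log2 signal for all measured single-gene probe sets (grey) and the 12 measured Notch probe sets (dark, named), with dashed lines at 2-fold. A dim Notch3 probe set at 1.499 is the only Notch point outside the dashed lines, in a range of signal where the grey points also spread widely.

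The target genes Hes1, Hey1 and Hey2 each had 1 probe set, all measured. Hes1, a repressor that also controls its own oscillating expression, read 162 with vehicle and 188 with ulipristal (1418102_at), a log2 ratio of 0.21. Hey2, a related repressor known from arteries and heart, read 127 and 154 (1418106_at), a log2 ratio of 0.28. Hey1, its close relative, read 78.7 and 62.6 (1415999_at), a log2 ratio of -0.33, and was the Notch gene with the lowest ratio. The 3 targets thus did not lie on the same side of 0, and all differed by between 1.16-fold and 1.26-fold. Of all measured genes, 11.9% had a lower ratio than Hey1 and 68.5% a lower ratio than Hey2.

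The promoter of Hey2 is shown because it was the only member promoter examined that held the letters bound by RBPJ, the factor through which Notch acts. RefSeq promoter windows (GRCm38.p6, 250 bases before to 50 after the start of the gene) were matched for 8 of the 10 genes: Notch1, Notch2, Notch3, Notch4, Jag1, Jag2, Dll4 and Hey2. GTGGGAA was searched on both strands, and also its shorter form TGGGAA, which every match of the longer form contains. The stretch lies at chr10:30842781-30843033 on the minus strand and runs from 250 bases before the start to 3 bases past it, with the matches in capitals, the first on the opposite strand and the second across the start.
Hey2: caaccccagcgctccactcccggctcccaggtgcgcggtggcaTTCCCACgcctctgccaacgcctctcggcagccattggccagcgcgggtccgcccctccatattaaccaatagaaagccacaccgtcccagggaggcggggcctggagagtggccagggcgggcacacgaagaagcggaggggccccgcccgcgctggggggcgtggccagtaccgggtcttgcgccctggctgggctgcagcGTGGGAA

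Of 32851 RefSeq promoter windows of this length, 6.38% held GTGGGAA at least once and 0.256% held it 2 or more times. The shorter TGGGAA was in 25.6% of them. A match describes letters and not a bound site, and the arrays carry no measure of binding.

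For the genes with several probe sets, the dimmer ones had the higher ratios. Notch1, Notch3, Notch4, Jag1, Jag2 and Dll4 had 2 or more probe sets with a signal above the floor on at least 1 array, and in 6 of 6 genes the brightest had the lowest ratio. Over all 7596 genes with such probe sets this was so for 39.6%, and the brightest had the highest ratio for 36.2%. The pattern among the Notch genes was noticed after their values were seen. It held for 6 of 6 genes after quantile normalization and lowess centring, for 5 of 6 with 50 added to every signal, and for 4 of 6 with the floor raised to the 50th percentile. Of the 7 Notch probe sets below the filter, 5 had a signal above the floor and all 5 had a ratio above 0, as did 55.0% of all such dim probe sets. Of these 5, 3 were at least 2-fold higher and 0 lower, where 12.5% of such dim probe sets were at least 2-fold higher and 7.23% lower. A Notch4 probe set (0.88 and 16.6) and a Dll4 probe set (1.59 and 21.0) passed the floor only with ulipristal. A ratio above 0 was therefore fixed in advance for both. They are among the 3 that were 2-fold higher, and are the dimmer probe sets compared for these genes in the 6 of 6.

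Probe sets of the same gene show how far apart 2 readings of a transcript can lie on these arrays. Over 4955 genes with 2 or more measured probe sets, the range of log2 ratios within a gene had a median of 0.43 and a 90th percentile of 0.997. The range was 0.22 for Jag1, 0.89 for Notch1 and 1.23 for Notch3, and 94.9% of genes had a smaller range than Notch3. The ratios of 8 of the 9 measured Notch genes were smaller in size than the median range, Notch4 being the exception. The median size over all measured genes, 0.26, was smaller too, so this is not particular to the Notch genes. A range over several probe sets is also an unlike measure to the ratio of a single brightest probe set. Neighbours in the order of the 9 ratios lay at most 0.27 apart in all 8 pairs. Sorting makes such gaps small, so they do not show whether the genes can be told apart.

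The rest of the pathway also held no gene past 2-fold. Of 56 listed genes, 52 had a single-gene probe set and 43 were measured. Of these, 0 were at least 2-fold higher and 0 lower, 24 lay above 0 and 19 below (60.0% above 0 over all measured genes), and the median log2 ratio was 0.06 against 0.09 for all measured genes. At 3.34% higher and 1.56% lower over all measured genes, this count too is close to the background.

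Among other ligands, 4 of 5 were measured. Dlk1, a Delta-like protein without the usual receptor-binding domain, read 30.1 with vehicle and 37.3 with ulipristal, and Dlk2, its relative, read 48.5 and 33.6. These were the highest and lowest ratios of that group, 0.31 and -0.53. The vehicle signal of Dlk1 lay just below the filter, so this gene counted as measured only through its ulipristal signal. A second Dlk2 probe set, too dim to be measured, read 13.6 and 36.2, in the opposite direction. The enzymes that add sugars to the receptor had 4 of 5 measured. Pofut1, which adds fucose to Notch, read 249 and 342, a log2 ratio of 0.46, and Rfng, a Fringe enzyme that extends this sugar, read 286 and 283, a log2 ratio of -0.01. The dimmer measured probe set of Rfng read 50.6 and 68.0, a log2 ratio of 0.43.

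Ubiquitin ligases and endocytic adaptors, which act on ligand uptake and receptor turnover, had 13 of 14 measured, with 5 above 0 and 8 below. Dtx3, a ligase of the Deltex family, had the highest ratio, 0.69, with signals of 137 and 221. Mib1, the ligase that drives ligand endocytosis, had the lowest, -0.42. It read 694 with vehicle and 520 with ulipristal, and all 3 of its measured probe sets lay below 0, from -0.73 to -0.39. Both ends of this range came from the dimmer Mib1 probe sets, at 40.1 and 24.3 and at 38.0 and 29.1. Their ulipristal signals lay below the filter, so they counted as measured only through their vehicle signals. Dtx1, another Deltex gene and named after its values were seen, had a dimmer measured probe set at 67.1 and 32.3, the only 1 of 73 measured pathway probe sets that passed 2-fold, whereas its brighter probe set read 54.4 and 64.3.

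The proteases that cut the receptor had 8 of 10 measured, from Adam10, which makes the outer cut, at -0.35 (1608 and 1258), to Ncstn, a subunit of the gamma-secretase complex, at 0.47 (66.8 and 92.8). The measured probe sets of Adam10 ran from -0.35 to 0.02, and those of Ncstn from -0.22 to 0.47. In the nuclear complex, 10 of 13 were measured. Spen, a corepressor that binds RBPJ, had the highest ratio, 0.61 (93.3 and 142), and Kat2b, a histone acetyltransferase, the lowest, -0.26 (1257 and 1048). The dimmer measured probe set of Kat2b read 34.1 and 36.9, a log2 ratio of 0.11. Rbpj itself read 453 and 485 on its brightest probe set, a log2 ratio of 0.10, with 3 measured probe sets from 0.10 to 0.78 (chosen after its values were seen).

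Other HES and HEY family genes and feedback targets had 4 of 9 measured. Heyl, the third HEY gene, read 137 and 177, a log2 ratio of 0.38, and its 3 measured probe sets all lay above 0, from 0.17 to 0.43. Bhlhe40, a related repressor that is also controlled by hypoxia and the circadian clock, read 1403 and 778, a log2 ratio of -0.85. This was the largest difference of the 43 measured genes on the list, 1.80-fold lower.

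**Figure D3:**
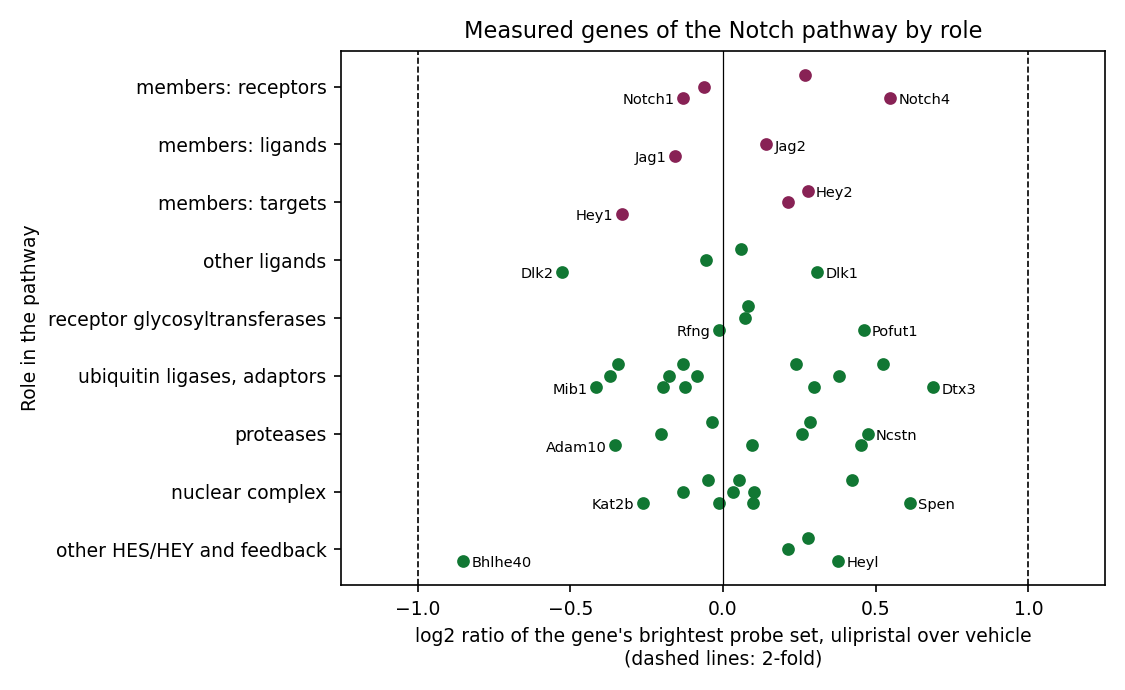
log2 ratio (ulipristal over vehicle) of each measured gene's brightest probe set, by role, for the 9 measured Notch genes (dark red) and 43 other pathway genes (green), with dashed lines at 2-fold and the highest and lowest gene of each role named. All points lie inside the dashed lines, the farthest being Bhlhe40 at -0.85.

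Processing changed the call of a single Notch gene. Without the probe sets whose names carry s or x, Notch3 was represented by its dimmer probe set and stood at 1.499, past 2-fold. Notch1 changed sign, from -0.13 to 0.32, when the median over its measured probe sets was taken. Jag2 came down to 0.0032 at the lowest, and Notch4 ranged from 0.41 to 0.55 over all settings.

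**Figure D4:**
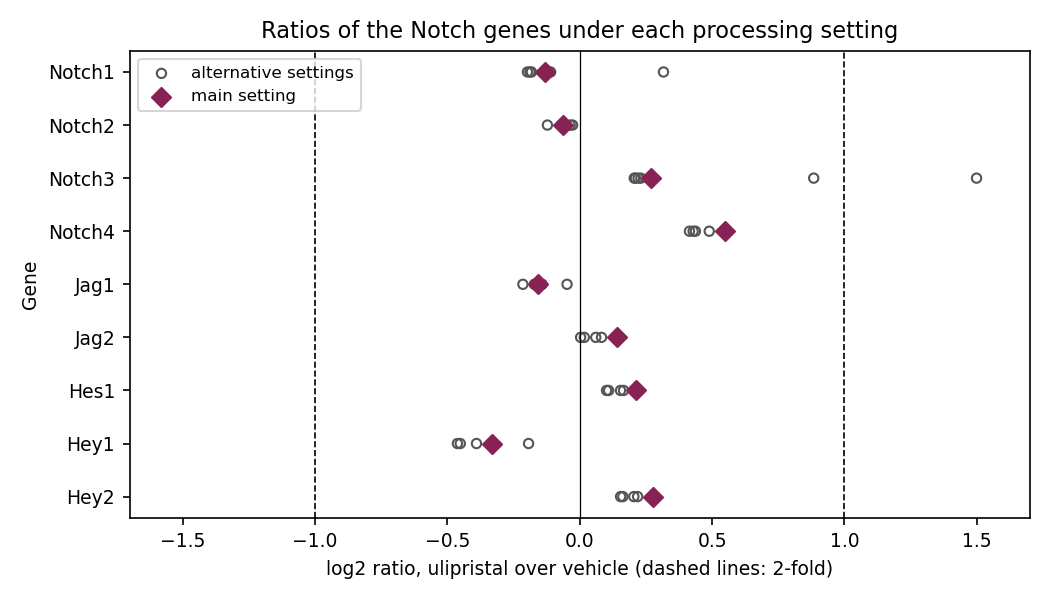
log2 ratio (ulipristal over vehicle) of the 9 measured Notch genes under the main setting (diamonds) and the alternative settings (open circles), with dashed lines at 2-fold. Most circles lie close to their diamond, apart from Notch3 at 0.88 and 1.499 and Notch1 at 0.32.

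On tissue identity, ovarian markers were present on both arrays: Inha, an inhibin subunit of granulosa cells, read 6933 and 8212, Cyp17a1, a theca enzyme, 851 and 1138, and Zp3, an egg coat protein, 211 and 301. Oviduct and ciliated cell markers were also present and higher with ulipristal, with 5 of 7 measured genes at least 2-fold higher, 0 lower, and summed signals of 3865 and 6173. The genes past 2-fold were Foxj1, Ccdc39, Tmem212, Wfdc2 and Tppp3. The vehicle signals of Foxj1 (19.1) and Ccdc39 (27.4) lay below the filter. Both genes counted as measured only through their ulipristal signals. Most of the summed signal came from Ovgp1, an oviduct glycoprotein gene that did not pass 2-fold, at 3641 and 5642. Surface epithelium markers had 1 of 9 (Epcam) and macrophage markers 1 of 8 (C1qc) measured genes at least 2-fold higher, and 0 lower. Theca and interstitial markers had 1 of 7 higher, Tcf21, and 1 lower, Hhip. The background to set beside each of these counts past 2-fold was 3.34% for higher and 1.56% for lower. The part of these cell types in the Notch values was not tested.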

How the data were processed

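Total RNA from whole ovaries was labelled from 100 ng and hybridised to Affymetrix mouse arrays, as the labels' protocols state. The authors deposited a linear intensity for each probe set. MAS5 and version 1 of Affymetrix Expression Console appear in the submitters' processing notes. After trimming 2% of values at each end, both arrays averaged 150.001, so the arrays are equal on average and a difference common to most genes is hidden. No genome build is given by these sources.

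Of 45101 probe sets, 34945 named 1 gene, 932 several and 9160 none, beside 64 controls. Signals under 7.17 (25th percentile) were set to that floor, log2 was taken, and vehicle was subtracted from ulipristal. A gene was represented by its brightest probe set and counted as measured at a mean log2 signal equal to a signal of 30.8 or more (50th percentile). This left 22519 probe sets and 11364 genes. Differences are called at 2-fold. Samples were grouped by their treatment label. With 1 array per group no test was made, and the number of arrays limits the precision. The Notch genes, pathway and marker lists were chosen with earlier results of these data known. Named genes are all 10 Notch genes and, per list, members past 2-fold or with the highest and lowest ratios. Named markers are those past 2-fold or, where a list had none, its brightest. Kdr, Cdh5, Inha, Amh, Cyp17a1, Zp3 and Ovgp1 were added after their values were seen. The settings varied were the centring (by the median, or by lowess with a fraction of 0.3), quantile normalization, other floors and filters, a pseudocount of 50, the median over probe sets, leaving out s and x probe sets, and 1.5-fold and 3-fold. The steps were tested on simulated data. The work was done in Python 3.11.15 with pandas 2.3.3, numpy 2.4.6, matplotlib 3.10.9 and statsmodels 0.14.6.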

Additional observations from a re-analysis of the deposited data

How the results depend on the processing

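The count of Notch genes at least 2-fold higher was 0 under 11 of 12 alternatives and 1 without s and x probe sets, where Notch3 stood at 1.499 (0.27 with all probe sets) because its brighter probe set is left out. The count lower was 0 under all 12. For the other pathway genes the counts were 0 and 0. At 1.5-fold they were 2 higher and 1 lower, and with no filter 0 and 1. Under the other 10 alternatives both were 0. Over all genes, 380 were at least 2-fold higher and 177 lower. These counts were 1403 and 520 at 1.5-fold, 60 and 57 at 3-fold, 58 and 101 with the filter at the 75th percentile, 1025 and 460 with no filter, and 54 and 97 with a pseudocount of 50. Of those past 2-fold, 68.2% were higher, against 60.3% after median centring, 57.4% after quantile normalization and 56.3% after lowess centring. No paired analysis was possible because each group has 1 sample. Low signal limits Dll4, Jag2 and the dimmer probe sets of the other genes.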

Other observations

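Several pathway genes had probe sets past 2-fold that were too dim to be measured, and are named after their values were seen. Of 23 dim pathway probe sets with a signal above the floor, 3 were at least 2-fold higher and 3 lower, where 12.5% of all such probe sets were higher and 7.23% lower. Where a single signal passed the floor, the direction was fixed by how the probe set was kept. Lfng, a Fringe enzyme that alters which ligands a Notch receptor answers to, read 31.8 with vehicle and 12.6 with ulipristal, 2.53-fold lower. A second probe set of Pofut1 read 22.6 and 5.04, at least 3.15-fold lower, opposite in direction to its measured probe set, and another dim one read 17.3 and 31.8. A second probe set of Numb, an adaptor that antagonises Notch, read 4.07 and 39.1, at least 5.45-fold higher, while its measured probe set read 666 and 611. The dim probe set of Dlk2, a Delta-like protein, was 2.66-fold higher. For Neurl1a, a ubiquitin ligase, a dim probe set was at least 2.29-fold higher (6.69 and 16.4). The measured probe set of Neurl1a read 35.8 and 31.2, and its other dim ones lay on both sides of 0. The dim probe set of Itch, another ubiquitin ligase, was at least 2.01-fold lower (14.4 and 6.58).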
